A study of Mus musculus with 8 samples.

Results

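The genes described here encode the subunits, regulators and dedicated assembly factors of the proteasome. They were chosen by symbol alone, as every entry of the deposited gene tables that reads Psm, a letter from a to g and a number. This rule found 48 of 55291 symbols, namely 8 alpha subunits (Psma) and 11 beta subunits (Psmb) of the 20S core particle, 6 ATPases of the regulatory cap (Psmc), 14 lid and base subunits or cap-associated factors (Psmd), and 9 regulators and assembly factors (Psme, Psmf and Psmg). The 7 further symbols that begin in the same way (5 pseudogenes, Psmc3ip and Psme2b) do not match the rule and were left out.

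The study measured RNA by sequencing in mouse embryonic stem cells, pluripotent cells of the early embryo. By their labels these were E14 cells, although the growth protocol speaks of R1 cells. Either DHX35, an RNA helicase, or GPATCH1, a G-patch protein that works with such helicases in pre-mRNA splicing, carried the FKBP12 F36V degron at its own gene. The lines were raised from single puromycin-resistant colonies, and the labels do not say which clone each library came from. DHX35-dTAG cells and GPATCH1-dTAG cells were each kept for 4 h in the solvent DMSO or in 200 nM dTAG-13, the compound that brings the degron-tagged protein to the cereblon ubiquitin ligase, with 2 libraries in each of the 4 groups. All groups thus carried a degron, and there was no library of unedited cells, so an effect of dTAG-13 itself cannot be told apart from the loss of the tagged protein. Nothing in the labels says whether the libraries of a group came from separate cultures, so the tests measure the spread between these libraries, which may be technical.

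The proteasome is the protease that destroys proteins marked with ubiquitin chains, including proteins taken by degrons such as the one used here. Its barrel-shaped core has rings of alpha subunits, which form the gate, and rings of beta subunits, of which Psmb5, Psmb6 and Psmb7 carry the catalytic sites. A cap binds the core at its ends. The ATPases of the cap unfold the substrate and thread it into the barrel, while the lid and base subunits bind ubiquitin and cut it off. In cells exposed to interferon, Psmb8, Psmb9 and Psmb10 take the places of the standard catalytic subunits to form the immunoproteasome, which also has the activator Psme1 and Psme2. Psmb11 belongs to the thymus and Psma8 to the testis. When proteasome activity is low, the transcription factor NFE2L1 raises the transcription of most subunit genes together, and it binds antioxidant response elements in their promoters.

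The promoters of the standard catalytic subunits Psmb5 and Psmb6 and of the immunoproteasome subunits Psmb8 and Psmb9, the former far more abundant than the latter in these cells, are shown here from RefSeq. Each window runs from 250 bases before to 50 bases after the annotated start of transcription, and is written 5′ to 3′ on the gene's strand. Capitals mark matches to the core of the antioxidant response element, TGACNNNGC, or to an interferon response element, GAAANNGAA, both searched on both strands.
Psmb5 (GRCm38.p6, chr14:54617946-54618245, minus strand): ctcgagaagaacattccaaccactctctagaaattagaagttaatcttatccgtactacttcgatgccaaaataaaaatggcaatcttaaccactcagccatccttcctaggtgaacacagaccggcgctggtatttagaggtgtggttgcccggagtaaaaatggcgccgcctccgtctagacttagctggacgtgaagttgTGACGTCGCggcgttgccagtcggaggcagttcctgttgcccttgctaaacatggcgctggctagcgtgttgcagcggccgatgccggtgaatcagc
Psmb6 (GRCm38.p6, chr11:70525107-70525406, plus strand): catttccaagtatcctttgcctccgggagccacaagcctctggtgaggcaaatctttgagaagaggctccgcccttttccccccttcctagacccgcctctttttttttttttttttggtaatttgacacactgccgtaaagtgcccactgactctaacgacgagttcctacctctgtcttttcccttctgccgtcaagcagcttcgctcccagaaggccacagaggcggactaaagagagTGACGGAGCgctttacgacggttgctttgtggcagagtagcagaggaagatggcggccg
Psmb8 (GRCm38.p6, chr17:34197945-34198244, plus strand): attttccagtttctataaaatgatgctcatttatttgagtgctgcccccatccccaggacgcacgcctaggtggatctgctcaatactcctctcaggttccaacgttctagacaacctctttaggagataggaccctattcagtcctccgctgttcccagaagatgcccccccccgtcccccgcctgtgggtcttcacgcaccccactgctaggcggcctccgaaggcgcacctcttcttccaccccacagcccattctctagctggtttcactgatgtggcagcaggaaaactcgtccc
Psmb9 (GRCm38.p6, chr17:34187281-34187580, minus strand): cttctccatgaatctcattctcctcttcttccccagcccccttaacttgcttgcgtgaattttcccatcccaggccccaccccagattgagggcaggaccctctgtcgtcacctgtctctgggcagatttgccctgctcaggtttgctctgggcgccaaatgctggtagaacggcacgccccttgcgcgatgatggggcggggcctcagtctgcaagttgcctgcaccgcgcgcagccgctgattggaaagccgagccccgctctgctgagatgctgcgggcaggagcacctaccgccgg
The windows of Psmb5 and Psmb6 each held the letters of the antioxidant response element once, beginning 47 and 9 bases before the start. Those of Psmb8 and Psmb9 held neither pattern, which says only that these letters are not in these windows. Windows of 40 of the 48 members were searched, 43 in all since a gene can have several starts. The antioxidant response element letters were in 14.0% of them, against 12.4% of all 32851 promoter windows in the table, and the interferon letters in 16.3% against 8.56%. The GC box letters GGGCGG were in 55.8% of the member windows against 35.7% of all, CCAAT in 32.6% against 37.4%, and TATAAA in 9.3% against 13.6%. GGGCGG can overlap other matches, and these shares are a description of letters, not of binding.

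The libraries held between 12014203 and 14994173 counts. Values are given as CPM, counts scaled to the size of the library after TMM adjustment, which corrects for genes that take up an unequal share of a library. Together, CT010467.1 and Gm23935, the 2 most counted genes, took from 1.27% to 20.86% of a library, and the scaling is meant to bring such libraries to a common level. In DHX35-dTAG cells they took 3.15% and 1.54% in DMSO and 11.98% and 20.22% in dTAG-13. In GPATCH1-dTAG cells they took 4.23% and 20.86% in DMSO and 1.27% and 2.02% in dTAG-13. Their share thus did not overlap between treatments in either line, in opposite directions, and it cannot be told apart from treatment. One library, DHX35-dTAG DMSO replicate 1, did not resemble the other 7. Mitochondrial mRNA made up 0.272% of its counts against 0.758% to 1.131% in the others, and its mean correlation with the others was 0.981 against 0.992 to 0.993. Small nuclear, nucleolar and Cajal body RNAs made up 0.366% of its counts against 0.12% to 0.143% in the others. Fold changes that rest on it are therefore given with and without it. All 10 embryonic stem cell markers listed (among them Pou5f1, Nanog and Sox2) were detected, with summed levels between 5730 and 6409 CPM. The 8 fibroblast markers summed to between 10.7 and 15.0 CPM, the 6 immune markers to between 12.5 and 23.0, the 6 endoderm markers to between 4.14 and 5.40 and the 6 meiotic germ cell markers to between 49.2 and 61.9. Of these, 2 immune markers (Ptprc and Adgre1) and 2 fibroblast markers (Lum and Postn) had no count in any library, while Cd68 was at 7.83 to 17.2 CPM, Cd3e at 4.05 to 5.91 and Pdgfrb at 7.76 to 11.6. Dhx35 mRNA was between 58.1 and 84.8 CPM. Gpatch1 mRNA was between 23.2 and 25.6 CPM in the DHX35-dTAG line and between 6.90 and 7.31 in the GPATCH1-dTAG line. The targeted gene's DMSO and dTAG-13 libraries overlapped in both lines, and its mRNA does not measure the tagged protein.

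After TMM scaling, proteasome genes made up a steady pool of mRNA in 7 of the 8 libraries. Their summed level was 6847 and 5869 CPM in DMSO and 5900.4 and 6067 in dTAG-13 in the DHX35-dTAG line. In the GPATCH1-dTAG line, it was 5926 and 5959 CPM in DMSO and 6215 and 6187 in dTAG-13. Replicate 1 of DHX35-dTAG cells in DMSO was thus the highest of the 8 libraries, and the other 7 lay between 5869 and 6215 with a coefficient of variation of 2.33% (5.24% with it). As a share of all counts, before scaling, the pool was 0.505% to 0.726%. In a bulk sample, less RNA per cell and fewer cells of a kind cannot be told apart.

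The 5 parts of the complex kept nearly fixed shares of this pool. Alpha subunits took 15.9% to 16.6% of it, beta subunits 16.8% to 17.6%, ATPases 16.2% to 16.5%, and lid and base subunits 37.2% to 38.0% in the 7 libraries without DHX35-dTAG DMSO replicate 1. The regulators and assembly factors took 12.2% to 12.9% in these libraries. In the library that stood apart, they took 10.5%, while the beta subunits took 18.4% and the ATPases 17.4%, above the range of the other libraries in both cases. The regulators' summed level there, 717 CPM, was just under the lowest of the others (723). Within that sum, Psme3, Psme4, Psmf1 and Psmg2 were lowest in this library, while Psme1, Psme2, Psmg1 and Psmg3 were highest.

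**Figure D1:**
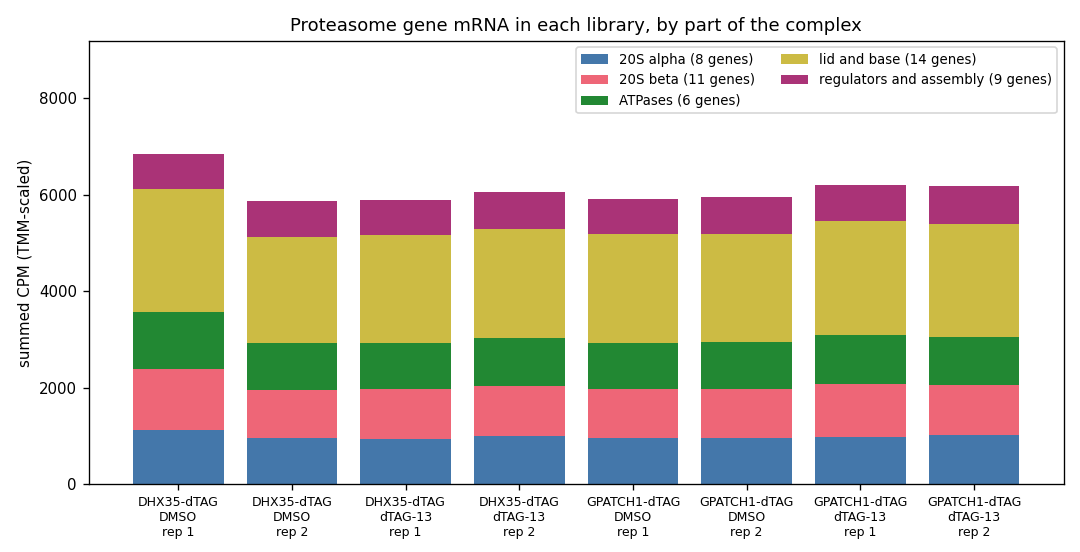
Summed TMM-scaled CPM of the 48 proteasome genes in each of the 8 libraries, with bars stacked by part of the complex. The first bar, replicate 1 of DHX35-dTAG cells in DMSO, reaches 6847 CPM, and the other 7 end between 5869 and 6215.

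The median member varied more from library to library than the pool and less than the median gene tested, with no matching for counts. It had a coefficient of variation over the 8 libraries of 8.5% (4.55% over the 7 libraries), against 13.5% (10.1%) for the median gene tested. Over the 8 libraries 12 of 45 members lay above the median gene and 3 below the pool. Counting error alone gives the median member 2.28%. Among parts, the median was between 4.29% and 4.68% over the 7 libraries for alpha, beta, ATPase and lid and base subunits, and 6.02% for the regulators and assembly factors, whose lower counts give them a counting error of 5.0%.

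Of the 48 members, 45 had enough counts to be tested and 3 did not, namely Psmb8, Psmb9 and Psmb11. Levels of different genes are compared only per length, as CPM per kilobase of the principal annotated transcript, averaged over the 8 libraries. On this scale the members tested spread over a 37.1-fold range, from 237 ± 39.2 for Psmb6 (SD, n = 8) to 6.40 ± 0.94 for Psma8 (SD, n = 8). The medians of the parts were 102.8 for alpha, 134.8 for beta and 103.8 for ATPase subunits, 86.9 for lid and base, and 27.7 for regulators and assembly factors. The median member of the core and cap was 3.33 times (SD over libraries 0.12) as high as the median regulator or assembly factor. The size of this ratio depends on the length used, being 4.94 with no division by length and 3.02 per kilobase of all annotated exons.

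The ATPases were the most even part with the principal transcript as the length. From Psmc4, at 140.7 CPM per kilobase, to Psmc6, at 71.6, the 6 ATPases differed by 1.97-fold. With all annotated exons as the length they ran from 31.2 to 115.1. That was wider than the range of the tested beta subunits without Psmb10, from 35.6 to 103.3. Among alpha subunits the range was 24.3-fold, from Psma6 at 155.2 to Psma8, and among beta subunits 35.4-fold, from Psmb6 to Psmb10 at 6.70. Without these testis and immunoproteasome subunits, the lowest alpha subunit was Psma2 at 48.8 and the lowest tested beta subunit Psmb5 at 73.3. Among lid and base genes, the subunit Psmd3 was highest at 138.5, and the lowest 3 were Psmd5 at 23.1, Psmd9 at 9.402 and Psmd10 at 8.12. These 3 encode chaperones that help to assemble the base of the cap and are not part of the finished particle. The regulators and assembly factors ran from Psme3, the nuclear activator, at 75.2 to Psmg3, an assembly chaperone of the alpha ring, at 9.27, with the proteasome inhibitor Psmf1 at 10.6. With all annotated exons as the length, the order changed for several members, such as Psma7, which moved from rank 10 to rank 30 of 45. Among activators, Psme3 was 2.24 to 3.38 times and Psme4 1.56 to 2.37 times as high as Psme1 in a library, and 5.29 and 3.24 times as high over the summed libraries with all annotated exons as the length.

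Psma6, Psmc4, Psmc6, Psmd3, Psmg3 and Psme4 each had DHX35-dTAG DMSO replicate 1 at one end of their range. Psma6 was at 187 and 148 CPM in DMSO and 149 and 164 in dTAG-13 in the DHX35-dTAG line, and at 155 and 162 in DMSO and 163 and 166 in dTAG-13 in the GPATCH1-dTAG line. Psmc4 was at 232 and 196 CPM in DMSO and 192 and 195 in dTAG-13 in the first line, and at 195 and 189 in DMSO and 218 and 204 in dTAG-13 in the second. Psmc6 was at 177 and 153 CPM in DMSO and 132 and 167 in dTAG-13 in the first line, and at 156 and 165 in DMSO and 161 and 169 in dTAG-13 in the second. These 3 subunits were highest in DHX35-dTAG DMSO replicate 1, and Psmc6 was lowest in a dTAG-13 library of the same line. Psmd3 was at 273 and 294 CPM in DMSO and 315 and 279 in dTAG-13 in the first line, and at 303 and 294 in DMSO and 317 and 306 in dTAG-13 in the second. Psmg3 was at 11.97 and 7.91 CPM in DMSO and 7.95 and 7.78 in dTAG-13 in the first line, and at 6.54 and 8.40 in DMSO and 7.68 and 7.27 in dTAG-13 in the second. Psme4, the nuclear activator with the longest transcript of the members, was at 313 and 356 CPM in DMSO and 322 and 356 in dTAG-13 in the first line, and at 344 and 368 in DMSO and 346 and 382 in dTAG-13 in the second. Psmd3 and Psme4 were lowest in DHX35-dTAG DMSO replicate 1 and Psmg3 was highest there.

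In these cells the standard catalytic subunits were abundant and their alternatives were rare. Psmb5, the chymotrypsin-like subunit, was at 97.0 and 62.9 CPM in DMSO and 68.4 and 63.7 in dTAG-13 in the DHX35-dTAG line, and at 56.9 and 53.8 in DMSO and 66.9 and 57.8 in dTAG-13 in the GPATCH1-dTAG line. Psmb6, the caspase-like subunit, was at 262 and 176 CPM in DMSO and 180.4 and 169 in dTAG-13 in the first line, and at 178 and 168 in DMSO and 201 and 180.1 in dTAG-13 in the second. Psmb7, the trypsin-like subunit, was at 209 and 169.8 CPM in DMSO and 172 and 182 in dTAG-13 in the first line, and at 177 and 178 in DMSO and 185 and 185 in dTAG-13 in the second. All 3 were highest in replicate 1 of DHX35-dTAG cells in DMSO, as were 30.3% of all genes, and in GPATCH1-dTAG cells the dTAG-13 libraries of all 3 lay above the DMSO libraries, as they did for 21.5% of all genes.

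The immunoproteasome subunits did not come as a set. Psmb8, which replaces Psmb5, had between 0 and 2 counts in a library. Over all 8 libraries it had 9 counts against 7180 for Psmb5, a ratio of 1440 per kilobase in favour of Psmb5 (95% exact binomial interval 761 to 3160, which covers counting error only), or 3000 with all annotated exons as the length. Psmb9, which replaces Psmb6, had between 5 and 11 counts, and Psmb6 was 385 to 752 times as high per kilobase. Psmb10, which replaces Psmb7, had between 76 and 176 counts, and Psmb7 was 18.1 to 31.5 times as high (10.4 times over the summed libraries with all annotated exons as the length). Psmb10 was at 13.01 and 8.87 CPM in DMSO and 10.8 and 8.49 in dTAG-13 in the DHX35-dTAG line, and at 7.38 and 6.72 in DMSO and 8.37 and 6.63 in dTAG-13 in the GPATCH1-dTAG line. The thymus subunit Psmb11 had between 1 and 6 counts in a library. Exons of Psmb8 and Psmb9 overlap those of the antisense gene Gm20496 and of Tap1 on the opposite strand, and whether the counting used strand is not stated, so reads of these overlapping pairs cannot be told apart.

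Psma8, the alternative of Psma7 known from the testis, was low but detected in every library, with 110 to 189 counts. It was at 14.0 and 11.6 CPM in DMSO and 11.6 and 9.73 in dTAG-13 in the DHX35-dTAG line, and at 9.77 and 11.1 in DMSO and 9.30 and 9.51 in dTAG-13 in the GPATCH1-dTAG line. Psma7 was at 148 and 105 CPM in DMSO and 107 and 102 in dTAG-13 in the first line, and at 106 and 111 in DMSO and 113 and 111 in dTAG-13 in the second, which is 16.8 to 22.6 times the level of Psma8 per kilobase. With all annotated exons as the length it was 8.5 times over the summed libraries.

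Depletion of DHX35 was compared with DMSO in DHX35-dTAG cells, to ask whether loss of this splicing factor for 4 h alters the mRNA of the proteasome. No member passed the test (edgeR's quasi-likelihood test, smallest p adjusted over the 16371 genes tested = 0.715), nor did DESeq2 call any. Over all genes tested, 0% passed with edgeR. Without adjustment, 3 of 45 members had a p under 0.05, of which 2 were higher and 1 lower, against 5.39% of all genes. In 8 members both dTAG-13 libraries lay above both DMSO libraries (14.6% of all genes did so), and in 3 members they lay below (14.1% of all genes).

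The median log2 fold change of the 45 members was -0.13, with 31 lower and 14 higher, against -0.01 for all genes. This lower median rested on DHX35-dTAG DMSO replicate 1. Without that library, the median was 0.03, with 29 members higher and 16 lower, and no member passed the test (0.0122% of all genes did, and 2 members against 4.43% of all genes had an unadjusted p under 0.05). With that library as the only DMSO sample, leaving out replicate 2, the median was -0.26 and 30 of 45 members passed, 26 lower and 4 higher, but so did 29.2% of all genes, and the single sample is then assumed to vary like the other groups.

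Most members were high in DHX35-dTAG DMSO replicate 1. It was the highest of the 8 libraries for 31 of 45 members (68.9%), against 30.3% of all genes tested, and the lowest for 11 (24.4%), against 29.5% of all genes. By part, it was the highest for 5 of 8 alpha, 6 of 8 beta, 6 of 6 ATPase and 10 of 14 lid and base genes, and for 4 of 9 regulators and assembly factors. Compared with the mean of the other 7 libraries, Psmb10, Psmb5 and Psmg3 were highest there, by 0.67, 0.66 and 0.65 on the log2 scale, and Psmb3, Psmg4 and Psmf1 were lowest, at -0.31, -0.31 and -0.27. Across the 45 members this deviation had a Spearman's rho of -0.222 with transcript length, and across 12033 protein-coding genes one of -0.264, where genes are not independent replicates and all points come from 1 library. In the other 7 libraries the same rho ran from -0.142 to 0.368 across members and from -0.00977 to 0.197 across protein-coding genes. The part that RNA length, depth, small RNA or mitochondrial content of this library had in the members' shift was not tested.

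**Figure D2:**
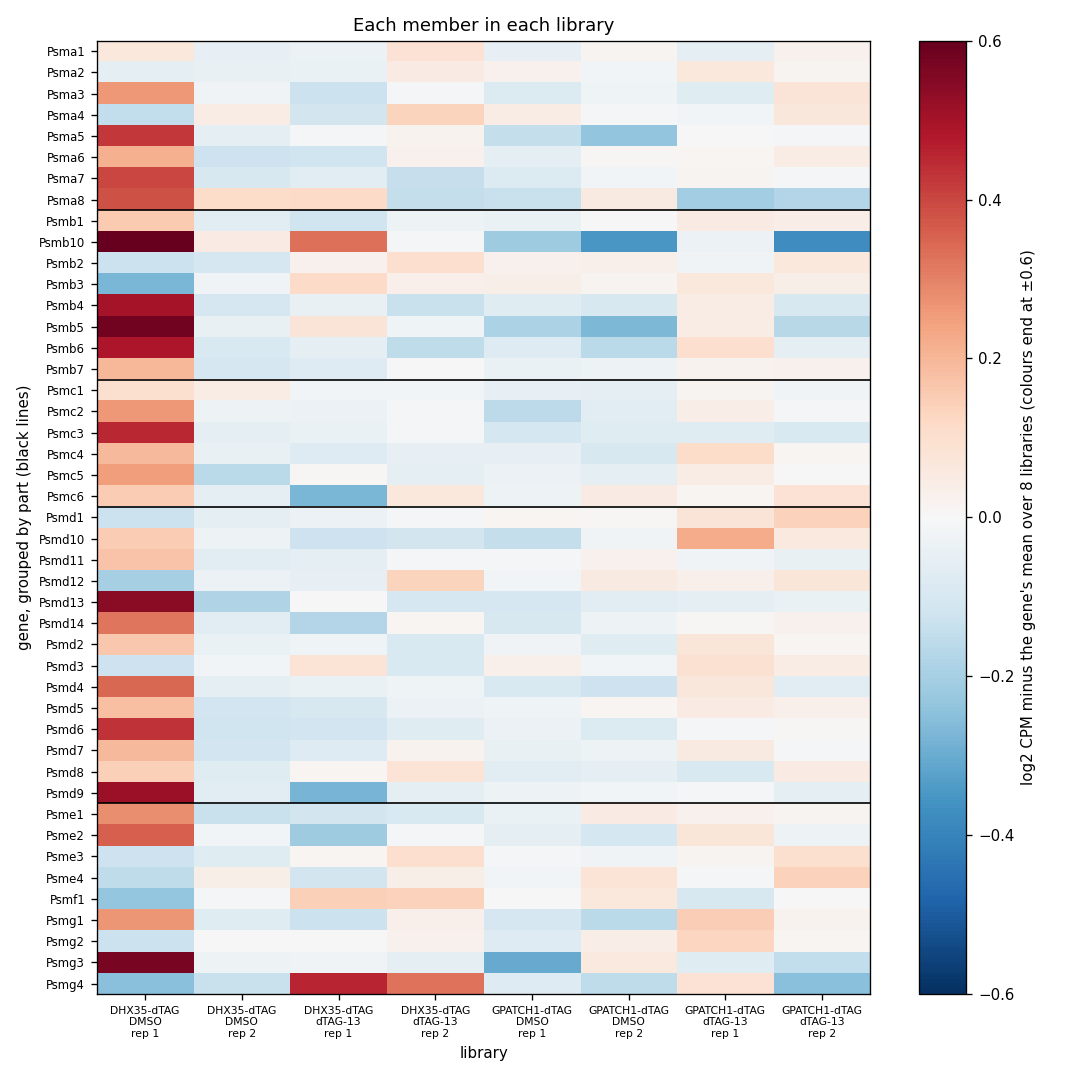
Each of the 45 members tested (rows, grouped by part) in each of the 8 libraries (columns), as log2 CPM minus the gene's mean over libraries, from blue (lower) to red (higher). The first column, replicate 1 of DHX35-dTAG cells in DMSO, is the highest of the 8 for 31 members, and Psmg4 in the bottom row is high in both dTAG-13 libraries of the same line.

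Psmg4, an assembly chaperone of the alpha ring, had the smallest p of the members in DHX35 depletion. It was at 9.02 and 9.77 CPM in DMSO and 14.7 and 13.4 in dTAG-13 in the DHX35-dTAG line, and at 10.2 and 9.64 in DMSO and 11.4 and 9.003 in dTAG-13 in the GPATCH1-dTAG line. The DHX35-dTAG libraries in dTAG-13 were thus the highest of the 8, and those in DMSO did not overlap with them. The log2 fold change was 0.58 (SE 0.15, unadjusted p = 0.0039), which did not pass (edgeR's quasi-likelihood test, adjusted p = 0.715), and it lay between 0.51 and 0.65 with any 1 library left out, passing in 1 of these 8 fits, the one without DHX35-dTAG DMSO replicate 2. Without replicate 1 of that group it was 0.53. In GPATCH1 depletion it was 0.05 (SE 0.15), and the difference between the responses was -0.54 (SE 0.21, unadjusted p = 0.0339), which did not pass either (edgeR's quasi-likelihood test, adjusted p = 0.862) and was -0.48 without DHX35-dTAG DMSO replicate 1. With 109 to 184 counts in a library, its counting error alone was 8.26%.

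Psmf1 in the higher and Psmd9 and Psme2 in the lower direction were the next members by p, and all 3 moved by less once the library that stood apart was left out. Psmf1, the inhibitor, was at 34.3 and 40.0 CPM in DMSO and 44.5 and 44.3 in dTAG-13 in the DHX35-dTAG line, with a log2 fold change of 0.26 (SE 0.10) and 0.15 without that library. Psmd9, a base chaperone, was at 34.4 and 23.1 CPM in DMSO and 19.9 and 23.2 in dTAG-13, with a log2 fold change of -0.41 (SE 0.18) and -0.10 without that library, and 25.5% of its exon bases overlap the non-coding gene Gm26745 on the other strand. Psme2 was at 36.0 and 27.7 CPM in DMSO and 24.2 and 27.95 in dTAG-13, with a log2 fold change of -0.29 (SE 0.14) and -0.09 without that library. Of these 3, the dTAG-13 and DMSO libraries overlapped for Psmd9 and Psme2 and did not for Psmf1. Psmb2 and Psmb3, beta subunits with p values between those of Psmd9 and Psme2, were higher by 0.18 (SE 0.08) and 0.21 (SE 0.10), and by 0.16 and 0.09 without that library.

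The precision differed between the comparisons. The 95% interval of the log2 fold change lay within ±0.5 (1.41-fold) for 30 of 45 members in DHX35 depletion, for 43 without DHX35-dTAG DMSO replicate 1, and for 39 in GPATCH1 depletion. When one response was subtracted from the other, only 18 members had such an interval, and 41 without that library. For the catalytic Psmb6, it reached from -0.69 to 0.04 in DHX35 depletion and from -0.22 to 0.51 in GPATCH1 depletion. Its log2 fold change in DHX35 depletion was -0.01 (SE 0.08) without DHX35-dTAG DMSO replicate 1.

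Depletion of GPATCH1 was compared in the same way in GPATCH1-dTAG cells. No member passed the test (edgeR's quasi-likelihood test, smallest adjusted p = 1.0), DESeq2 called none, and 0% of all genes passed with edgeR. None of the 45 had an unadjusted p under 0.05, against 2.97% of all genes. The median log2 fold change was 0.06, with 40 members higher and 5 lower, against 0.003 for all genes. By part, 7 of 8 alpha, 7 of 8 beta, 6 of 6 ATPase, 12 of 14 lid and base and 8 of 9 regulator and assembly genes were higher, with part medians between 0.05 and 0.06. Both dTAG-13 libraries lay above both DMSO libraries for 25 of 45 members, against 21.5% of all genes, and below them for 2, against 20.3%. Members of a library share its scaling and are not replicates, so these counts describe 4 libraries.

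The fold changes of this comparison rest on the GPATCH1-dTAG libraries. Replicate 1 of DHX35-dTAG cells in DMSO enters only through the scaling and the shared spread, so leaving it out is no test of the pattern. In GPATCH1-dTAG cells, DMSO libraries had a mean summed level of 5942 ± 23.4 CPM (SD, n = 2), while dTAG-13 libraries had one of 6201 ± 19.8 (SD, n = 2), so the groups did not overlap. The dTAG-13 libraries of the GPATCH1-dTAG line were also the highest of the 7 other libraries, and the next, replicate 2 of DHX35-dTAG cells in dTAG-13, was at 6067 CPM. With DHX35-dTAG DMSO replicate 1 left out, the shared estimate of the spread was smaller and 6 members had an unadjusted p under 0.05, all higher, against 8.52% of all genes, but none passed the test (edgeR's quasi-likelihood test, smallest adjusted p = 0.328), which 0.312% of all genes did. With each library of the line left out in turn, the median stayed between 0.05 and 0.06, and 33 to 39 members were higher.

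Psmg1, another alpha ring chaperone, had the smallest p here. It was at 53.4 and 51.1 CPM in DMSO and 63.3 and 58.0 in dTAG-13 in the GPATCH1-dTAG line, a log2 fold change of 0.22 (SE 0.12), which did not pass (edgeR's quasi-likelihood test, adjusted p = 1.0). Psmd10, a base chaperone also called gankyrin, was at 10.48 and 11.4 CPM in DMSO and 13.5 and 12.03 in dTAG-13, a log2 fold change of 0.23 (SE 0.13). In both genes the groups did not overlap. Among the members that were lower in dTAG-13, Psma8 had the smallest p, at a log2 fold change of -0.15 (SE 0.16). Next among them was Psmf1, at 40.2 and 42.1 CPM in DMSO and 37.7 and 40.2 in dTAG-13, at -0.08 (SE 0.10). The signs of Psmg1, Psmd10 and Psmf1 were the opposite in DHX35 depletion, where their log2 fold changes were -0.15, -0.18 and 0.26. Without DHX35-dTAG DMSO replicate 1 they were 0.02, -0.09 and 0.15, so that the sign of Psmg1 was then the same in both lines. The differences between the responses were 0.37 (SE 0.18) for Psmg1, 0.41 (SE 0.19) for Psmd10 and -0.34 (SE 0.15) for Psmf1, and none passed (edgeR's quasi-likelihood test, adjusted p = 0.862). Without that library, the differences were 0.19, 0.32 and -0.23.

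**Figure D3:**
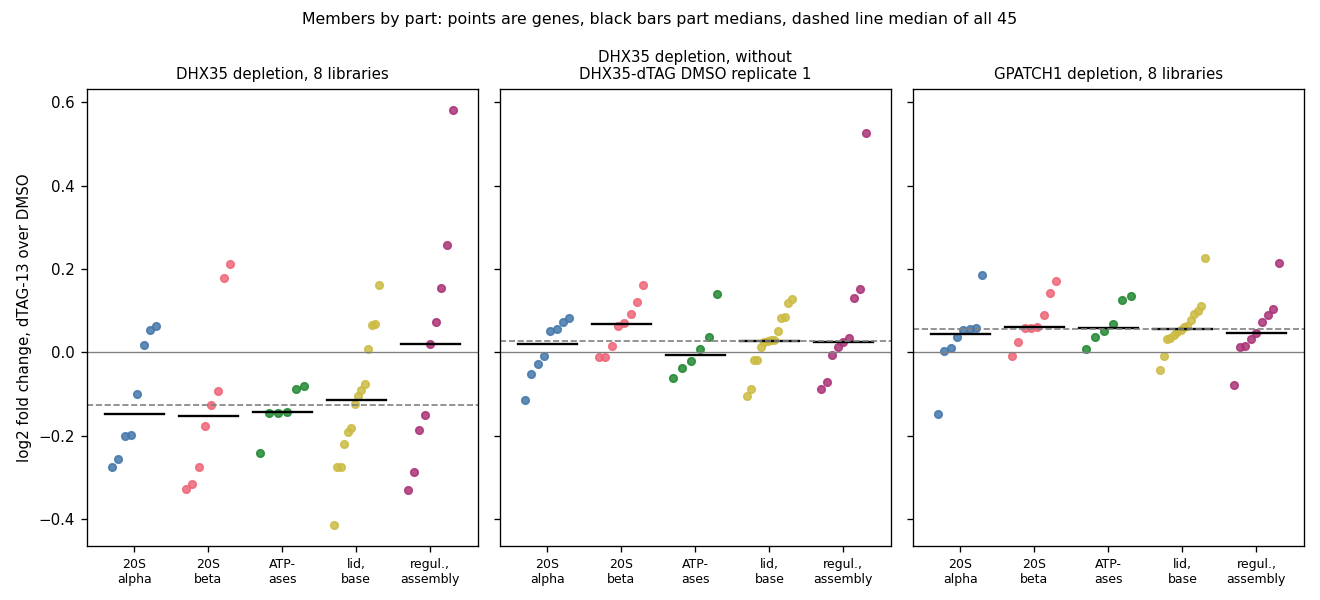
Log2 fold changes of the 45 members, dTAG-13 over DMSO, by part, for DHX35 depletion with all 8 libraries, for DHX35 depletion without DHX35-dTAG DMSO replicate 1, and for GPATCH1 depletion. Points are genes, black bars part medians, and the dashed line the median of all 45, which lies at -0.13, 0.03 and 0.06 in the 3 panels.

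The responses of the lines were compared directly, from the same 8 libraries, as the GPATCH1 response minus the DHX35 response. No member passed (edgeR's quasi-likelihood test, smallest adjusted p = 0.862), DESeq2 called none, and neither did any of all genes pass with edgeR (0%). Unadjusted, 2 of 45 members had a p under 0.05, Psmg4 and Psmf1, against 3.91% of all genes. Only Psmg4 did so without DHX35-dTAG DMSO replicate 1, against 5.17% of all genes. The median difference of the members was 0.18, but 0.04 without DHX35-dTAG DMSO replicate 1. With replicate 2 of that group left out instead, it was 0.31 and 26 of 45 members passed, against 21.7% of all genes.

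Taken over both lines in a model with line and treatment, dTAG-13 gave no call among the members (edgeR's quasi-likelihood test, smallest adjusted p = 0.963), none with DESeq2, and 0% of all genes with edgeR. Only Psmg4 had an unadjusted p under 0.05, at a log2 fold change of 0.32 (SE 0.13, and 0.25 without DHX35-dTAG DMSO replicate 1), against 3.59% of all genes. In GPATCH1-dTAG cells its DMSO and dTAG-13 libraries overlapped. The median of the members was -0.02, with 16 higher and 29 lower. Without DHX35-dTAG DMSO replicate 1 it was 0.05, with 40 higher and 5 lower, and 5 members (Psma5, Psmb5, Psmc5, Psmg1 and Psmg4, all higher) had an unadjusted p under 0.05, against 7.31% of all genes. Psme3 was at 184 and 190.3 CPM in DMSO and 202 and 215 in dTAG-13 in DHX35-dTAG cells, and at 199 and 197 in DMSO and 203 and 214 in dTAG-13 in GPATCH1-dTAG cells. In both lines its dTAG-13 libraries lay above its DMSO libraries, with a log2 fold change of 0.11 (SE 0.05) that did not pass (edgeR's quasi-likelihood test, adjusted p = 0.963) and was 0.10 without DHX35-dTAG DMSO replicate 1.

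No member passed between the lines. In the same model, GPATCH1-dTAG cells against DHX35-dTAG cells gave no call among 45 members (edgeR's quasi-likelihood test, smallest adjusted p = 0.197) and none with DESeq2, while 0.788% of all genes passed with edgeR. Unadjusted, 3 members had a p under 0.05, against 15.3% of all genes, and 4 against 20.5% without DHX35-dTAG DMSO replicate 1. With all libraries these were Psmb10, at -0.49 (SE 0.16), Psma8, at -0.24 (SE 0.11), and Psmd1, the large scaffold subunit of the base, at 0.12 (SE 0.05). Psmd1 was at 220.1 and 232 CPM in DMSO and 235 and 239 in dTAG-13 in DHX35-dTAG cells, and at 243 and 242 in DMSO and 254 and 265 in dTAG-13 in GPATCH1-dTAG cells, so its lines did not overlap. All 4 libraries of GPATCH1-dTAG cells were below all 4 of DHX35-dTAG cells for Psmb10, the nearest at 8.37 and 8.49 CPM. The share of all genes whose lines do not overlap was not counted. When genes with few counts were kept in the test, Psmb10 (log2 fold change -0.47, adjusted p = 0.0319) and Psmb5 (-0.29, adjusted p = 0.0386) passed edgeR's quasi-likelihood test, as did 2.82% of all genes. With the filter, Psmb10 and Psmb5 did not pass, and leaving out DHX35-dTAG DMSO replicate 1 in the filtered fit gave -0.17 for Psma8, 0.10 for Psmd1, -0.34 for Psmb10 and -0.12 for Psmb5. The fit with neither the filter nor that library was not run.

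The partners of the proteasome gave no call. None of 27 tested proteasome partners (assembly and ubiquitin-handling factors, shuttle proteins and the NFE2L1 pathway, from a list of 28) passed the test with all 8 libraries in any of the 5 comparisons, nor did any of the 6 genes that supply and activate ubiquitin or the 8 tested genes of antigen processing. The medians of the partners were 0.02 in DHX35 depletion, 0.05 in GPATCH1 depletion and 0.03 between the lines. The partner with the smallest p in DHX35 depletion was the shuttle factor Ubqln2, at 65.3 and 104.6 CPM in DMSO and 118 and 118 in dTAG-13, a log2 fold change of 0.47 (SE 0.18, edgeR's quasi-likelihood test, adjusted p = 0.715). Without DHX35-dTAG DMSO replicate 1, the lowest of the 8 libraries for this gene, it was 0.17 (SE 0.07). Nfe2l1, the factor that raises subunit genes when the proteasome is impaired, was between 202 and 236 CPM over the 8 libraries, a gene named here after its values were seen. Ubb, one of the polyubiquitin genes, was at 328 and 443 CPM in DMSO and 448 and 495 in dTAG-13 in DHX35-dTAG cells, with replicate 1 of DMSO the lowest of the 8.

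The antigen processing genes that work downstream of the immunoproteasome were low, with summed levels between 80.8 and 97.5 CPM for 10 genes. B2m, the light chain of MHC class I, was at 3.03 and 3.79 CPM in DMSO and 5.21 and 4.95 in dTAG-13 in DHX35-dTAG cells, and at 5.89 and 6.45 in DMSO and 6.196 and 7.56 in dTAG-13 in GPATCH1-dTAG cells. All 4 GPATCH1-dTAG libraries were above all 4 of the other line, a separation not counted over all genes. The log2 difference of 0.63 (SE 0.14) did not pass (edgeR's quasi-likelihood test, adjusted p = 0.0872). Without DHX35-dTAG DMSO replicate 1 it was 0.53 (SE 0.14) and passed (edgeR's quasi-likelihood test, adjusted p = 0.0259), as did 6.16% of all genes. Irf1, an interferon-responsive transcription factor, was at 21.4 and 21.3 CPM in DMSO and 25.3 and 24.3 in dTAG-13 in DHX35-dTAG cells, and at 20.7 and 18.2 in DMSO and 23.7 and 24.0 in dTAG-13 in GPATCH1-dTAG cells. Its dTAG-13 libraries were thus above the DMSO libraries in both lines, with a log2 fold change of 0.25 (SE 0.07) over both that did not pass (edgeR's quasi-likelihood test, adjusted p = 0.963) and was 0.26 without DHX35-dTAG DMSO replicate 1. Of the marker lists, Utf1, a stem cell marker, passed between the lines at -0.49 (SE 0.08, edgeR's quasi-likelihood test, adjusted p = 0.0305), and so did Stra8, a germ cell gene, at 0.36 (SE 0.07, adjusted p = 0.0478), and no marker passed in either depletion. Between the lines, Utf1 was at -0.40 and Stra8 at 0.38 without DHX35-dTAG DMSO replicate 1, and both passed (edgeR's quasi-likelihood test, adjusted p = 7.09e-05 and 0.00187).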

How the data were processed

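RNA-seq of 8 libraries was analysed (DHX35-dTAG and GPATCH1-dTAG cells, DMSO or 200 nM dTAG-13 for 4 h, 2 libraries a group, grouped by the sample labels). The authors depleted ribosomal RNA, added human DLD-1 RNA as a spike-in, prepared stranded libraries and, per the methods and the submitters' processing notes, used FastQC 0.11.9, Trim Galore 0.6.6 and STAR 2.7.5c with mm10 and hg19, and DESeq2 1.26.0. They deposited raw counts per gene symbol, with 1 table a library. The counting program, annotation and strand setting are not given in the sources used here, so the counts of 13 members whose exons overlap another gene are uncertain. Total counts were 12014203 to 14994173.

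From the deposited counts, groups were compared with edgeR 4.0.16 in R 4.3.3 (TMM, filterByExpr, glmQLFit and glmQLFTest, Benjamini-Hochberg adjustment over 16371 genes, threshold 0.05), with all 8 libraries sharing 1 spread per gene. Standard errors were taken as log2 fold change over the root of the test's F. CPM values are TMM-scaled, and the spike-in was not used, so a change in total RNA would not show in them. Lengths come from the principal transcripts of GENCODE M21 (GRCm38), and promoters from RefSeq (GRCm38.p6). The code was tested on simulated data. Replicates were not duplicates, with a chi-square statistic per gene of 5.489 to 138.967. This is a mean over genes on unscaled counts, which a few genes of high count can set. It does not measure the spread of a typical gene.

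The members and the lists were chosen with earlier results of these data known. Genes are named by a rule: the catalytic subunits and alternatives, Psma7 and Psma8, the highest and lowest member per kilobase of each part, the 2 members with the smallest p in each direction of each comparison, and of the other lists those that passed and the 1 with the smallest p. One gene that this rule names is not reported here. Psma2, Psmb2, Psmd5, Psmg2, Nfe2l1, Psma5, Psmc5, 3 markers of other cell types and the members that deviate most in 1 library were named after their values were seen. Alternatives were DESeq2 1.42.0, its size factors in edgeR, total counts, other expression filters, a replicate block, fewer libraries and the 2 genes of highest count left out. Division by the length of all annotated exons was chosen after seeing the data.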

Additional observations from a re-analysis of the deposited data

How the results depend on the processing

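The calls among members were the same under DESeq2, DESeq2's size factors, total counts, a minimum of 10 counts, fits to the 4 libraries of a line or to DMSO libraries alone, the replicate block and with the 2 genes of highest count left out, with 0 members called in each comparison that these settings allow. Over all genes, the fit to the 4 GPATCH1-dTAG libraries alone called 127 of 15815 genes in GPATCH1 depletion, against 0 of 16371 with all 8 libraries. Without the expression filter, 2 members were called between the lines. With each library left out in turn, between 0 and 30 members were called in DHX35 depletion, between 0 and 26 in the difference between the responses and 0 in the other comparisons. The median of the members then lay between -0.259 and 0.027 in DHX35 depletion, 0.05 and 0.06 in GPATCH1 depletion, 0.037 and 0.313 in the difference, -0.06 and 0.05 over both lines and -0.06 and 0.04 between the lines, and the extremes came from DHX35-dTAG DMSO replicates 1 and 2 in all but GPATCH1 depletion. Scaling by total counts moved the median of all genes to -0.25 in DHX35 depletion, 0.17 in GPATCH1 depletion and 0.40 in the difference, and that of the members to -0.36, 0.22 and 0.59. Relative to all genes, the members' medians were then -0.12, 0.06 and 0.19, against -0.12, 0.05 and 0.18 with TMM. Under that scaling Psma8 (0.022) and Psmf1 (0.09) changed sign in GPATCH1 depletion, and so did Psmf1 in the difference (0.072). The ratio of core and cap members to regulators, 3.33 per kilobase of principal transcript, was 4.94 without division by length and 3.02 per kilobase of all exons. The labels do not say that a replicate number marks a shared culture or batch, so the numbers were not taken to pair the samples. The correlations of same-numbered deviations ran from 0.035 to 0.298, with 4 of 6 pairs of groups above 0.1, and pairing can be neither shown nor dismissed from them. With the replicate block, the members' medians were -0.13 in DHX35 depletion, 0.06 in GPATCH1 depletion and 0.19 in the difference. The cause of these dependences was not tested.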
